A study of Mus musculus with 6 samples.

Results

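The 9 genes described here encode receptors of the TNF receptor superfamily: Tnfrsf21, Fas, Tnfrsf1a, Tnfrsf10b, Tnfrsf1b, Tnfrsf9, Tnfrsf12a, Tnfrsf14 and Cd40. They were chosen by symbol, as some of the family's death receptors and co-stimulatory receptors. All 9 are among the 21965 genes of the count table, and all 9 reached the total of 10 counts that was required for testing, as did 14792 genes. The study used male C57BL/6J mice bought at 11 weeks of age and acclimated for 1 week. In the air group 3 mice breathed filtered air, and in the CAP group 3 mice breathed concentrated ambient particles, fine outdoor particles enriched before delivery, at a mean of 67 µg/m3. Both groups were exposed for 6 h per day over 30 days. Bone marrow cells of each mouse were then cultured as endothelial progenitor cells (EPCs), for 10 days by the study's methods and 12 days by the sample labels, and their mRNA was sequenced. Each library is 1 mouse. Each group was housed in 1 cage, and an effect of the cage cannot be told apart from that of exposure.

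Receptors of this family are trimeric membrane proteins that bind ligands of the TNF superfamily. Fas, Tnfrsf1a, Tnfrsf10b and Tnfrsf21 carry a cytoplasmic death domain, which recruits the adaptors FADD or TRADD and can start caspase-driven apoptosis or RIPK-driven necroptosis. The other 5 members lack the domain and bind TRAF adaptors, which lead to NF-kB and MAP kinase signalling. In myeloid and endothelial cells the family is known for inflammatory activation and for the control of survival. Gene counts do not separate membrane from soluble forms of a receptor.

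The libraries held 28713206 to 30446171 counts, and the biological coefficient of variation was 26.3%. Counts were divided by relative log expression size factors, and these are the normalized counts given throughout. The cells labelled EPCs carried abundant macrophage transcripts. All 12 macrophage markers had counts, with a summed level of 675571 to 714478 normalized counts in air and 489378 to 618826 in CAP. Lyz2 was the largest part of this sum, at 357985 to 377406 in air and 282568 to 297193 in CAP. Of the 12 markers, 10 had a log2 fold change below 0 and 2 above 0. Those above 0 were Fcgr1 (0.65, SE 0.13), higher in every CAP library, and Csf1r (0.11, SE 0.15). Over all tested genes, Fcgr1 had an adjusted p of 0.468 by edgeR and 0.00867 by DESeq2. The study itself listed Fcgr1 as higher in CAP from these libraries. All 12 endothelial markers had counts as well, with a summed level of 1060 to 3750 in air and 919 to 1267 in CAP. The value of 3750 was that of air replicate 3, against 1060 and 1376 in air replicates 1 and 2. Of the 12 endothelial markers, 11 had a log2 fold change below 0 and 1 above 0, with a median of -1.32. For Cdh5, Pecam1 and Tek every CAP library was below every air library, as for 8.46% of all tested genes. The adjusted p by edgeR was 0.468 for each. Tek was low in counts, at 4, 24 and 86 raw counts in air and 0, 0 and 3 in CAP. The study itself listed Tek as lower in CAP from these libraries. The 10 stromal markers summed to 131395 to 208422 in air and 53865 to 133902 in CAP. Several defining markers of lymphocytes were at 0 in all 6 libraries: Ms4a1 and Blk of B cells, and Cd3d, Cd3g, Cd8a and Ncr1 of T and NK cells. The whole lists summed to 1940 to 2845 in air and 1260 to 2148 in CAP for B cells, and to 473 to 915 in air and 500.3 to 745 in CAP for T and NK cells. Most of these sums came from Ebf1 (1251 to 2819) and Cd4 (464 to 900.4). Epithelial markers, of which Krt8, Krt14 and Cldn4 were at 0 throughout, summed to 27.4 to 45.3 in air and 121 to 580 in CAP. Dendritic cell markers, with Flt3, Xcr1 and Cd209a at 0, summed to 148 to 288 in the other libraries and 741 in CAP replicate 2. CAP replicate 2 stood apart. It was the highest or the lowest of the 6 libraries for 61.5% of tested genes and for 9 of 9 members, and its macrophage, endothelial and stromal sums were the lowest. Each member is therefore also given without it. The part of the cell makeup in the differences below was not tested. In bulk RNA, fewer cells of a type and less RNA per cell cannot be told apart.

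Promoters are shown for 3 of the 4 members whose air and CAP libraries did not overlap, with Tnfrsf12a on the higher side and Tnfrsf21 and Fas on the lower side. They are the 250 bases before the RefSeq start (GRCm38.p6) of Tnfrsf21 at chr17:43016305-43016554 on the plus strand, of Tnfrsf12a at chr17:23677450-23677699 on the minus strand and of Fas at chr19:34290409-34290658 on the plus strand. Capitals mark the GC box GGGCGG, the AP-1 site TGANTCA and the E-box CACGTG, each searched on both strands.
Tnfrsf21: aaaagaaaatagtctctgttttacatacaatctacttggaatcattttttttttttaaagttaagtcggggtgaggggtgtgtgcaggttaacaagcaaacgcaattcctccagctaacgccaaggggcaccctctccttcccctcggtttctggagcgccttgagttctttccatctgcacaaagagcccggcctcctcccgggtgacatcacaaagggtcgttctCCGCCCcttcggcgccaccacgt
Tnfrsf12a: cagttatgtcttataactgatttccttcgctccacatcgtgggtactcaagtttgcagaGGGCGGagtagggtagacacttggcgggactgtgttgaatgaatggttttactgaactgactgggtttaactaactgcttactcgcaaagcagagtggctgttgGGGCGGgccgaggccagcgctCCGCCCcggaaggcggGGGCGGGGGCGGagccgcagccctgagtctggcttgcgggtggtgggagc
Fas: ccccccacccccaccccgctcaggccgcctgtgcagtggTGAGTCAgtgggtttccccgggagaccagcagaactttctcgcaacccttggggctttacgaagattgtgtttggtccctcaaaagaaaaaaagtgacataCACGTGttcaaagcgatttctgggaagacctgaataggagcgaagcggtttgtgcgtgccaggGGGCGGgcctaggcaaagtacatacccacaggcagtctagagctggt
The Tnfrsf12a promoter held 5 GC boxes, of which the pair nearest the gene stands side by side, and those of Tnfrsf21 and Fas held 1 each. A GC box was present in 32.7% of 32851 RefSeq promoters of this length. The Fas promoter also held 1 AP-1 site, found in 6.75% of promoters, and 1 E-box, found in 6.02%. CpG dinucleotides numbered 15 in Tnfrsf12a, 12 in Tnfrsf21 and 11 in Fas, beside a median of 6 over all promoters. Among the 7 members with a RefSeq promoter entry, 5 had a GC box and 0 had a TATA box (TATAAA), which 12.4% of promoters hold. The matches are letters in a window and were not tested as binding sites.

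The comparison of CAP with air asked whether the receptor mRNAs differed after exposure. By edgeR's quasi-likelihood test with Benjamini-Hochberg adjustment over all tested genes, 0 members passed the threshold of 0.05 in either direction, as did 0% of all tested genes in each direction. At an unadjusted p under 0.05, 1 member was higher in CAP (Tnfrsf12a) and 1 was lower (Tnfrsf21), where 5.89% of all tested genes were higher and 4.68% lower. The air and CAP libraries did not overlap for 2 members that were higher in CAP (Tnfrsf12a and Tnfrsf10b) and 2 that were lower (Tnfrsf21 and Fas). Over all tested genes, 8.44% were separated in this way on the higher side and 8.46% on the lower side, or 16.9% in all. By DESeq2, 1 member passed, Tnfrsf21 on the lower side, where 0.0144% of 13924 genes passed, and 0 members passed on the higher side, where 0.158% passed. The median log2 fold change of the members was -0.21, beside -0.01 for all tested genes.

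**Figure D1:**
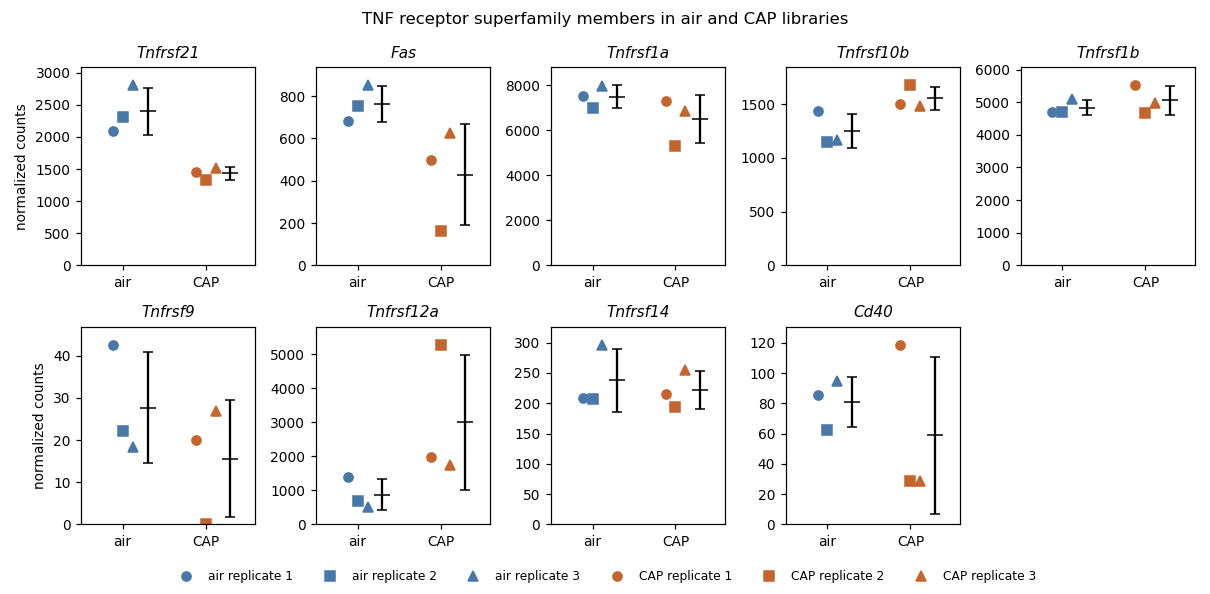
Normalized counts of the 9 members (vertical axes, each from 0) in air and CAP. Points are single libraries, 1 mouse each, and bars are the mean ± SD of 3. The groups are separate for Tnfrsf21, Fas, Tnfrsf10b and Tnfrsf12a, and CAP replicate 2 lies far from the other CAP libraries for Fas (162) and Tnfrsf12a (5291).

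Tnfrsf21, the death-domain receptor DR6 (ENSMUSG00000023915, chr17:43016555-43089189, plus strand, GRCm38), is known for roles in lymphocyte differentiation and in the pruning of axons. It was at 2089, 2311 and 2802 normalized counts in air replicates 1 to 3 and at 1461, 1324 and 1511 in CAP replicates 1 to 3. Every CAP library was below every air library, and the CAP libraries were close to each other. The means were 2401 ± 365 in air and 1432 ± 96.6 in CAP (SD, n = 3 each), a log2 fold change of -0.75 (SE 0.14). The unadjusted p of 0.000659 was rank 6 among the 14792 genes, but the adjusted p by edgeR was 0.468. DESeq2 gave an adjusted p of 0.0132, and 0.000181 with a local dispersion trend, by which 0.246% of genes passed on the lower side and 0.802% on the higher side, with 0 members there. Without CAP replicate 2 the log2 fold change was -0.70, so that this difference was nearly as large without the library that stood apart. DESeq2's call was lost without air replicate 2 (adjusted p = 0.178), without air replicate 3 (adjusted p = 0.41) and without CAP replicate 1 (adjusted p = 0.1). This receptor is among the genes the study itself listed as lower in CAP from these libraries, so the DESeq2 call is not independent evidence of its direction.

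Fas, the receptor of Fas ligand and the best known inducer of extrinsic apoptosis (ENSMUSG00000024778, chr19:34290666-34327772, plus strand), was at 684, 751 and 849.9 in air and at 499, 162 and 624 in CAP. All 3 CAP libraries were below the lowest air library, and CAP replicate 2 was far below the other CAP libraries. The means were 762 ± 83.5 and 429 ± 239, with a log2 fold change of -0.83 (SE 0.39) and an adjusted p of 0.472 by edgeR. CAP replicate 2 carried much of this size. Without it the log2 fold change was -0.45 (SE 0.17) and the adjusted p 0.6.

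Tnfrsf10b is the mouse death receptor for TRAIL, known as DR5 (ENSMUSG00000022074, chr14:69767472-69784411, plus strand). It was the 1 death-domain member with higher values in every CAP library. It was at 1434, 1151 and 1163 in air and at 1504, 1674 and 1481 in CAP. The lowest CAP library was just above the highest air library. The means were 1249 ± 159.8 and 1553 ± 106, with a log2 fold change of 0.31 (SE 0.14) and an adjusted p of 0.468 by edgeR. It was 0.25 without CAP replicate 2. Of its 50-base windows 6.21% also occur in transcripts of other genes, so that a small part of its counting is uncertain.

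Tnfrsf1a, or TNFR1, is the ubiquitous TNF receptor that starts NF-kB signalling or cell death (ENSMUSG00000030341, chr6:125349362-125362484, plus strand). It was at 7526, 7003 and 7986 in air and at 7319, 5309 and 6884 in CAP. The groups overlapped, and CAP replicate 2 was the lowest library. The log2 fold change was -0.21 (SE 0.14), with an adjusted p of 0.577 by edgeR, and -0.08 without CAP replicate 2.

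Among the members without a death domain, Tnfrsf12a showed the largest difference of the 9 in the fit of all 6 libraries. It encodes Fn14, the small receptor of the cytokine TWEAK, known to be induced by growth factors and tissue injury (ENSMUSG00000023905, chr17:23675445-23677468, minus strand). It was at 1404, 703 and 524 normalized counts in air and at 1992, 5291 and 1742 in CAP. Every CAP library was above every air library, with CAP replicate 2 well above the other CAP libraries and air replicate 1 above the other air libraries. The means were 877 ± 465 and 3008 ± 1981, a log2 fold change of 1.78 (SE 0.49). The unadjusted p of 0.00563 was rank 91 of 14792, and the adjusted p was 0.468 by edgeR and 0.229 by DESeq2. Without CAP replicate 2 the log2 fold change was 1.09 (SE 0.31), and without air replicate 1 DESeq2 alone called it, with an adjusted p of 0.0011.

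Tnfrsf1b, or TNFR2, is the TNF receptor of leukocytes and endothelial cells that binds TRAF2 and favours survival (ENSMUSG00000028599, chr4:145213463-145246870, minus strand). It was at 4715, 4695 and 5094.5 in air and at 5514, 4655 and 4991 in CAP. The groups overlapped, with a log2 fold change of 0.06 (SE 0.11), an adjusted p of 0.838 by edgeR and a value of 0.11 without CAP replicate 2. It had the smallest standard error of the 9 members.

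The remaining 3 members are classical co-stimulatory receptors, and their mRNAs were the scarcest of the members. Tnfrsf14, or HVEM, which binds LIGHT and the inhibitory receptor BTLA (ENSMUSG00000042333, chr4:154921933-154928563, minus strand), was at 208, 208 and 297 in air and at 215, 194 and 256 in CAP. The groups overlapped. Its log2 fold change was -0.10 (SE 0.24), with an adjusted p of 0.886 by edgeR, and -0.02 without CAP replicate 2. Of its 50-base windows 4.51% occur in other genes.

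Cd40, the receptor through which T cells activate antigen-presenting cells (ENSMUSG00000017652, chr2:165055627-165072948, plus strand), was at 85.4, 62.5 and 94.5 in air and at 119, 28.9 and 28.9 in CAP. CAP replicate 1 was the highest of the 6 libraries and the other CAP libraries were the lowest. The log2 fold change of -0.44 (SE 0.55; adjusted p 0.759 by edgeR) therefore depended on single libraries. It was -1.48 without CAP replicate 1 and -0.12 without CAP replicate 2 or without CAP replicate 3.

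Tnfrsf9, or 4-1BB, a receptor of activated T and NK cells that activated myeloid cells also carry (ENSMUSG00000028965, chr4:150914562-150946102, plus strand), had 42, 22 and 18 raw counts in air and 21, 0 and 27 in CAP. The groups overlapped. The log2 fold change was -0.81 (SE 0.76; adjusted p 0.675 by edgeR), and -0.25 without CAP replicate 2, the library with no count.

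**Figure D2:**
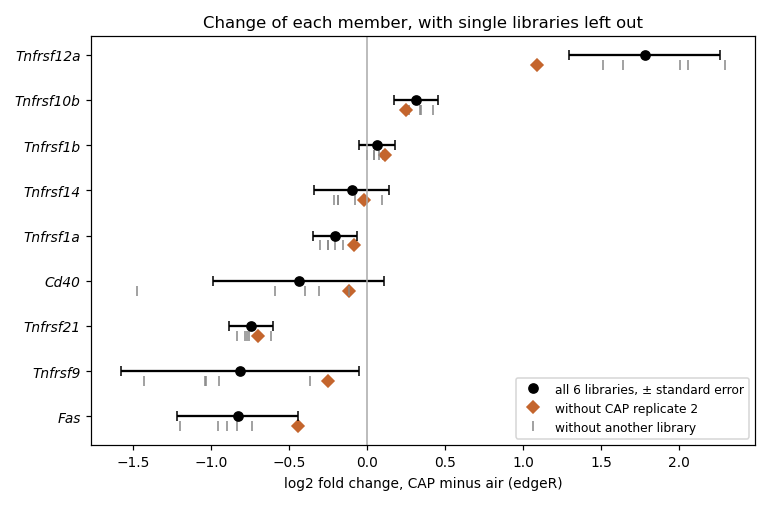
Log2 fold change of each member (horizontal axis, CAP minus air, edgeR). Black points are the fit of all 6 libraries with ± 1 standard error, orange diamonds the fit without CAP replicate 2, and grey ticks the fits without another library. Tnfrsf12a moves from 1.78 to 1.09 and Fas from -0.83 to -0.45 without CAP replicate 2, while Tnfrsf21 moves from -0.75 to -0.70.

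Levels of different genes were compared per length, as RPKM computed from the counts with RLE-scaled library sizes, here the level per length. Tnfrsf1a had the highest mean level of the members, at 92.8 (range 70.3 to 106 over the 6 libraries), and no other member reached its range except Tnfrsf12a in CAP replicate 2. Tnfrsf1b followed at 44.4 (41.8 to 49.6) and Tnfrsf12a at 34.5 (9.30 to 94.0). These were followed by Tnfrsf21 at 16.0, Fas at 9.90 and Tnfrsf10b at 8.82. From Tnfrsf1b to Tnfrsf10b, the ranges of neighbours over the 6 libraries overlapped. The order differed between the groups. The mean of Tnfrsf12a was below that of Tnfrsf21 in air (15.6 against 20.05) and above that of Tnfrsf1b in CAP (53.4 against 45.4). That of Fas was above Tnfrsf10b in air (12.7 against 7.87) and below it in CAP (7.13 against 9.78). Tnfrsf14 was lower at 5.48 (4.64 to 7.08), and Cd40 at 0.704 and Tnfrsf9 at 0.273 were lowest and overlapped each other. The ranges of neighbours were separate between Tnfrsf1a and Tnfrsf1b, between Tnfrsf10b and Tnfrsf14, and between Tnfrsf14 and Cd40.

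**Figure D3:**
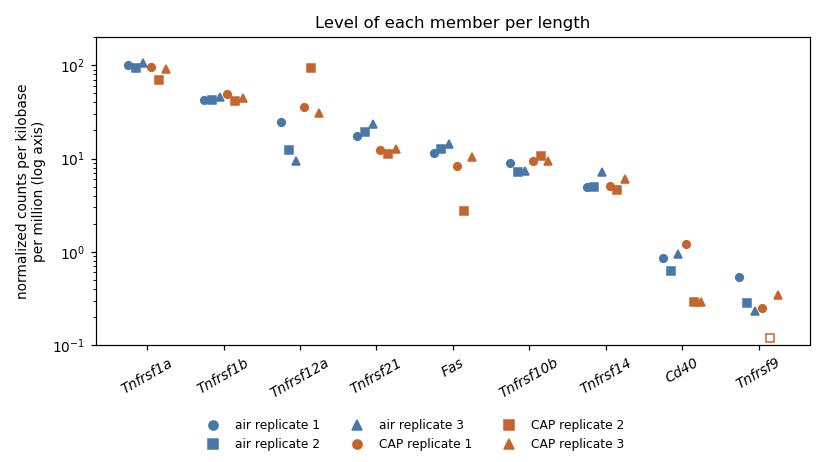
Level of each member as RPKM with RLE-scaled library sizes, which are normalized counts per kilobase scaled to depth (log axis), in order of the mean. Points are the 6 libraries, and the open square at the lower edge is a library with no count. Tnfrsf12a spans 9.30 to 94.0 and overlaps 5 other members in level.

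The summed level per length of the 9 members was 192 to 214 in air and 206 to 235 in CAP, and these ranges overlapped. In the makeup of the sum, the shares of some members were separate between the groups. Those of Tnfrsf1b, Tnfrsf14, Cd40 and Tnfrsf9 overlapped. The 4 death-domain receptors made up 65.1%, 68.5% and 70.4% of the sum in air and 58.1%, 40.2% and 59.9% in CAP. Every CAP library had a smaller share than every air library. Tnfrsf12a alone made up 11.8%, 6.49% and 4.35% in air and 16.2%, 39.9% and 15.0% in CAP. These shares depend on each other, since a larger share of 1 receptor lowers the rest.

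**Figure D4:**
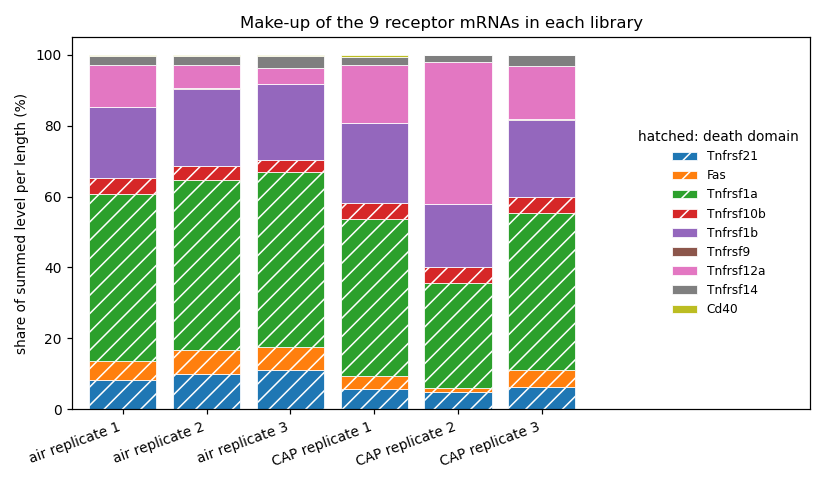
Share of each member in the summed level per length (percent, vertical axis) in the 6 libraries, with the death-domain receptors hatched. The hatched part ends at 65.1% to 70.4% in air and at 40.2% to 59.9% in CAP.

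Ratios between members were taken within each library, chosen after the values were seen and not tested. The level per length of Tnfrsf1a over that of Tnfrsf1b, the pair of TNF receptors, was 2.35, 2.20 and 2.31 in air and 1.96, 1.68 and 2.03 in CAP. The CAP ratios were all below the air ratios, with means of 2.29 ± 0.0797 and 1.89 ± 0.185. Tnfrsf10b over Tnfrsf21 was 0.517, 0.376 and 0.313 in air and 0.776, 0.953 and 0.739 in CAP. Each of these genes was already separate between the groups, in opposite directions, so that this ratio could not overlap. Tnfrsf21 over Fas was 1.53, 1.54 and 1.65 in air and 1.47, 4.09 and 1.22 in CAP. It was above 1 in all 6 libraries, and the groups overlapped.

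The ligands of the members were scarce in these cultures, with 1 exception. Fasl and Cd40lg, the ligands of Fas and Cd40 made mainly by T and NK cells, had 0 counts in all 6 libraries, which allows up to 3 counts over the libraries together, or 0.0172 CPM, counting error only. Lta, a lymphocyte ligand of both TNF receptors, had 8 counts in all and was not tested. Tnf itself was at 38.6, 40.3 and 25.4 normalized counts in air and at 43.8, 83.7 and 37.9 in CAP. The groups overlapped, with a log2 fold change of 0.66 (SE 0.45; adjusted p 0.574 by edgeR). Tnfsf10, which encodes TRAIL, ranged from 52.8 to 94.8 with a log2 fold change of 0.31 (SE 0.33). Tnfsf9, the ligand of 4-1BB, ranged from 82.3 to 157, with a log2 fold change of -0.09 (SE 0.33) and 14.9% of its exon bases shared with an antisense gene. Tnfsf14, which encodes LIGHT, ranged from 7.11 to 30.5.

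The exception was Tnfsf12, which encodes TWEAK, the ligand of Fn14. It was at 1180, 1059 and 1093 in air and at 984, 585 and 939 in CAP. Every CAP library was below every air library, while its receptor Tnfrsf12a was above. The means were 1110 ± 62.4 and 836 ± 219, with a log2 fold change of -0.41 (SE 0.20) and an adjusted p of 0.478 by edgeR. Of the Tnfsf12 exon bases 48.2% are shared with the readthrough gene Tnfsfm13 on the same strand, so that its count is uncertain. Of the 18 listed ligands 14 were tested, and 0 passed the test in edgeR or DESeq2. At an unadjusted p under 0.05, 0 were higher and 1 was lower, beside 5.89% and 4.68% of all tested genes. The lower one was Tnfsf11, which encodes the osteoclast factor RANKL (log2 fold change -1.87, SE 0.50, adjusted p 0.468 by edgeR). DESeq2 gave Tnfsf11 an adjusted p of 0.126, and 0.0373 with a local dispersion trend. Every CAP library was below every air library for this gene, and the study itself listed it as lower in CAP from these libraries. The median of the ligands was -0.41 and, without CAP replicate 2, -0.21.

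**Figure D5:**
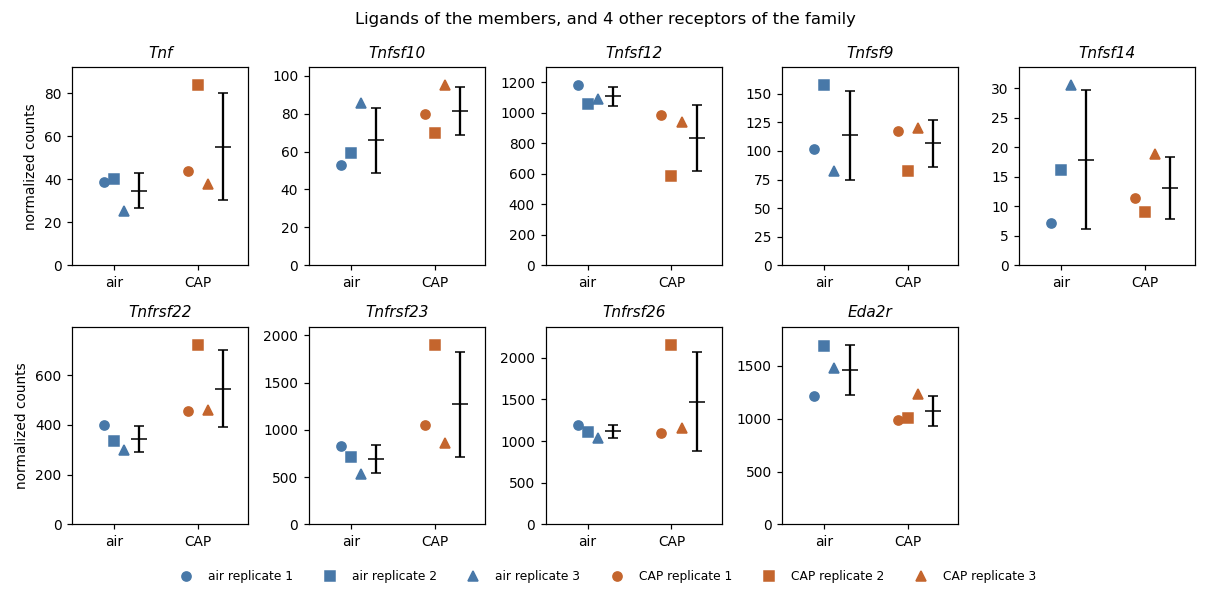
Normalized counts of 5 ligands of the members (upper row) and of 4 other receptors of the family (lower row) in air and CAP. Points are single libraries and bars the mean ± SD of 3, with vertical axes from 0. Tnfsf12 is separate on the lower side and Tnfrsf22 and Tnfrsf23 on the higher side, and CAP replicate 2 is the highest library for Tnfrsf22, Tnfrsf23 and Tnfrsf26.

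Of 19 other receptors of the family, 16 were tested and 0 passed in edgeR or DESeq2. At an unadjusted p under 0.05, 2 were higher in CAP and 2 were lower, beside 5.89% and 4.68% of all tested genes. Those higher were Tnfrsf23 and Tnfrsf22, the mouse decoy receptors for TRAIL, which bind the ligand of Tnfrsf10b without a functional death domain. Tnfrsf23 was at 832, 715 and 534 in air and at 1050, 1903 and 860.3 in CAP (log2 fold change 0.87, SE 0.30). Tnfrsf22 was at 401, 335 and 298 in air and at 455, 723 and 459 in CAP (log2 fold change 0.66, SE 0.24). Their groups did not overlap, and CAP replicate 2 was the highest library for both. The genes are neighbours of partly shared sequence, with 27.4% of the 50-base windows of Tnfrsf22 and 19.3% of those of Tnfrsf23 found in other genes, so that their counts are uncertain. Those lower were Eda2r, a receptor of ectodysplasin A2 and a known p53 target (log2 fold change -0.44, SE 0.17), and Tnfrsf19, known as TROY (log2 fold change -1.94, SE 0.84). The groups of Eda2r overlapped. Tnfrsf19 was at 618, 618 and 1427 in air and at 134, 4.98 and 558 in CAP. CAP replicate 2 was far below the other CAP libraries for Tnfrsf19, and DESeq2 gave this gene an unadjusted p of 0.169. The adjusted p by edgeR was 0.468 for each of these 4 genes.

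Downstream of the receptors, 0 genes of any list passed in edgeR or DESeq2. Of 26 adaptors, caspases and regulators of death signalling, 3 were higher and 2 lower in CAP at an unadjusted p under 0.05. Over all tested genes, 5.89% were higher and 4.68% lower. The median log2 fold change of the list was -0.04. Mlkl, the executioner of necroptosis, was higher (log2 fold change 0.34, SE 0.13), as was Bak1, a pore-forming protein of mitochondrial apoptosis (0.32, SE 0.13). Bcl2l11, which encodes the BH3-only killer protein BIM, was lower (-0.69, SE 0.22), as was Birc2, which encodes the ubiquitin ligase cIAP1 that guards against TNF-driven death (-0.45, SE 0.18). These 4 genes were named for their low p. Their groups were separate, and the adjusted p by edgeR was 0.468 for each. Of the 26 genes, 4 were above air and 2 below air in every CAP library, beside 8.44% and 8.46% of all tested genes. Of 25 genes of TRAF and NF-kB signalling, 0 were higher and 1 was lower, Map3k14, the NF-kB-inducing kinase (-0.49, SE 0.21). Ikbkg (0.27), Rnf31 (0.26) and Tnfaip3 (0.24), which encode NEMO, the ligase HOIP and the NF-kB brake A20, were next by p and were higher in every CAP library. Of the 25 genes, 3 were above air and 1 below air in every CAP library. The median of this list was -0.01, as was that of all tested genes.

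Genes that TNF and NF-kB are known to induce numbered 20, of which 18 were tested. At an unadjusted p under 0.05, 5 were higher and 0 lower in CAP, beside the 5.89% of all tested genes that were higher. Of the 18 genes, 6 were above air and 1, Vcam1, below air in every CAP library, beside 8.44% and 8.46% of all tested genes. Il6, an inflammatory cytokine, was at 16.3, 6.04 and 5.08 in air and at 33.3, 39.9 and 24.9 in CAP (log2 fold change 1.83, SE 0.58). Cxcl1, a neutrophil chemokine, was at 66.1, 80.6 and 85.4 in air and at 125, 150.5 and 143 in CAP (0.85, SE 0.27). Both were low in counts, and their groups did not overlap. Ier3, an early response gene, was higher by 0.70 (SE 0.23), and Ptgs2, which encodes cyclooxygenase 2, by 4.61 (SE 1.48). Ptgs2 had 1102 normalized counts in CAP replicate 2 against 53.9 or fewer in the other libraries, and DESeq2 gave it no p. The adjusted p by edgeR was 0.468 for each of these 4 genes. The median of the list was 0.05, with 10 of the tested genes above 0 and 8 below. Without CAP replicate 2 the median was 0.11. In that edgeR fit 5 of the 18 genes had an unadjusted p under 0.05, counted in either direction. So did 1194 of 14640 tested genes.

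Fas and Tnfrsf10b are textbook targets of p53 and were on opposite sides here. Of 16 other p53 targets, 2 were higher and 3 lower at an unadjusted p under 0.05, beside 5.89% and 4.68% of all tested genes. The median of these targets was -0.20 and became -0.07 without CAP replicate 2. Trp53inp1 (-1.17, SE 0.35) and Sesn1 (-0.59, SE 0.19), which act in the stress response, were lower, and Aen, an apoptosis-enhancing nuclease, was higher (0.46, SE 0.15). The groups of Trp53inp1 overlapped, while those of Sesn1 and Aen were separate. The adjusted p by edgeR was 0.468 for each of these 3 genes. Of 5 genes that release receptor ectodomains or hold that release back, 0 were at an unadjusted p under 0.05, and Adam17, the sheddase of TNF and of its receptors, had a log2 fold change of -0.15 (SE 0.13).

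The genes most like each member over the 6 libraries were found by Pearson correlation of log2 values among 11115 genes averaging at least 100 normalized counts, as a description in which the libraries and their makeup are shared by all genes. For Tnfrsf12a they were Gars (0.999), Asns (0.999) and Eif3c (0.998), which encode glycyl-tRNA synthetase, asparagine synthetase and a translation initiation subunit. For Fas they were Cp (0.999), Nfia (0.999) and C1s1 (0.998), of which Cp encodes ceruloplasmin and C1s1 a complement protease. For Tnfrsf21 they were Osm (0.989), Hnrnph3 (0.986) and H3f3a (0.984), of which Osm encodes oncostatin M, and for Tnfrsf10b they included Psmc2 (0.996) and Nsfl1c (0.995), of which Psmc2 encodes a proteasome ATPase. As many as 1219 genes had a coefficient over 0.9 with Fas, 895 with Tnfrsf12a and 883 with Tnfrsf1a, against 136 with Tnfrsf21.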

How the data were processed

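Poly-A RNA of 6 cultures, 3 per group, was sequenced. Per the submitters' notes and the study's methods, the authors mapped the single-end, strand-marked reads with STAR 2.6 against mm10, and HTSeq 0.10.0 gave the deposited raw counts. How multi-mapped reads were treated, which annotation release was used and which strand setting was used is not given in the sources. Total counts were 28713206 to 30446171 per library, and intervals and floors cover counting error only.

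GENCODE vM21 gave the names and the coordinates of genes, and held 21939 of the 21965 gene IDs. Promoters came from RefSeq (GRCm38.p6), where 7 of the 9 members matched, and protein sequences were not used here. No member shared exon bases with another annotated gene. Genes whose counts summed to at least 10 entered the quasi-likelihood test of edgeR 4.0.16 (R 4.3.3), CAP minus air, with relative log expression normalization and Benjamini-Hochberg adjustment at 0.05. The form of the fit with adjusted deviances was used. The standard error is the absolute log2 fold change over the square root of F. Levels per length used exon unions. The fitting script was tested on simulated data.

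Alternatives were TMM normalization, no count filter, filterByExpr, DESeq2 1.42.0 with a parametric or a local dispersion trend, limma-voom (limma 3.58.1), a block for the replicate number and fits without each library. The earlier form of the edgeR fit and DESeq2 without each library were alternatives added later, with the data in view. The members and lists were chosen with earlier results of these data known. Named genes were all members, up to 4 genes of lowest unadjusted p per list, the ligands of the members, and the 3 genes of highest correlation with a member averaging at least 50 normalized counts. Tnfrsf26 and the genes of the closing section were chosen after their values were seen. The results of some genes that this rule or the marker lists hold are not reported here.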

Additional observations from a re-analysis of the deposited data

How the results depend on the processing

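By edgeR, 0 genes passed in either direction under TMM, without a filter, with filterByExpr, with the earlier form of the fit, with limma-voom and without each library in turn, the lowest adjusted p being 0.0561, without CAP replicate 2. DESeq2 called 22 genes higher and 2 lower in CAP, and 114 and 35 with a local trend. Leaving out 1 library at a time moved the DESeq2 calls from 5 to 425 genes higher and from 0 to 369 lower, the highest counts being those without CAP replicate 3. Without air replicates 1, 2 and 3 it called 60, 5 and 7 genes higher and 14, 1 and 0 lower, and without CAP replicates 1 and 2 it called 6 and 29 higher and 1 and 14 lower. Among the members, DESeq2 called 1 lower (Tnfrsf21), also with a local trend and without air replicate 1, CAP replicate 2 or CAP replicate 3, and 1 higher (Tnfrsf12a) without air replicate 1. With a local trend DESeq2 called 1 ligand lower (Tnfsf11). Over the fits of DESeq2 without 1 library, calls in the lists ranged from 0 to 1 for ligands lower, other receptors higher, death signalling lower and p53 targets in each direction, and from 0 to 3 for TNF-induced genes higher. The cause of these moves was not tested.

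The sign of 2 members with small differences reversed when 1 library was left out. The log2 fold change of Tnfrsf1b was -0.0038 without CAP replicate 1, in edgeR and in DESeq2, and ranged up to 0.115 without CAP replicate 2. That of Tnfrsf14 was 0.0930 in edgeR and 0.0933 in DESeq2 without air replicate 3, and ranged down to -0.214 in edgeR and -0.215 in DESeq2 without CAP replicate 3. The other 7 members kept their direction under all 20 alternatives.

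Deviations from the group means correlated at -0.02, 0.09 and 0.17 between libraries of the same replicate number, so that not every correlation was over 0.1 and the numbers were not taken as pairs. Air replicates 2 and 3 correlated best with the CAP library of their own number and air replicate 1 did not. The replicate numbers are those of the sample titles, and the column names of the count table number the libraries differently. With the replicate number as a block, 0 genes passed in edgeR in either direction, with a lowest adjusted p of 0.277 and 0.289 for Tnfrsf21. At an unadjusted p under 0.05 the block gave 935 genes higher and 964 lower, beside 871 and 693 without it.

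Over the 6 libraries together, Tnfrsf9 had 130 counts, Il6 127 and Tnf 271, while each of the other members had at least 422. Counting error was not separated from the spread between mice.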

Other observations

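Some other receptors of the family were well expressed in these cultures, and their groups overlapped. They were chosen after their values were seen. Ltbr, the lymphotoxin beta receptor, ranged from 2836 to 3521 normalized counts, with a log2 fold change of 0.02 (SE 0.13) and an adjusted p of 0.964 by edgeR. Tnfrsf11a, the RANK receptor of osteoclast precursors, ranged from 1231 to 2042, with a log2 fold change of -0.25 (SE 0.18) and an adjusted p of 0.591. Tnfrsf26, a neighbour of the decoy TRAIL receptors, was at 1195, 1112 and 1041 in air and at 1094, 2156.5 and 1160 in CAP, so that CAP replicate 2 alone stood above the air libraries. Tnfrsf13c, the BAFF receptor of B cells, had 0 counts in all 6 libraries, which allows up to 3 counts over the libraries together, or 0.0172 CPM.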
